A study of Sus scrofa with 2 samples.

Results

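The ribosomal protein genes were followed gene by gene through the cell classes of the pig pancreas. The members were chosen by symbol alone, as every gene of the count matrices called RPL or RPS with a number, or RPSA, RPLP0, RPLP1 or RPLP2, without the ribosomal S6 kinases. This gave 52 of the 31908 genes, of which 29 are named by their symbol for the large subunit (RPL) and 23 for the small subunit (RPS). No gene carried the symbol RPLP1, RPS19, RPS27A, RPL39L or RPS4Y1, and 8 further ribosomal protein genes, RPLP1 and RPS27A among them, could be named only through the RefSeq table of Sscrofa11.1 and are given separately.

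The ribosome is built of a small subunit, which holds the mRNA and reads its codons, and a large subunit, which joins the amino acids and passes the new chain through an exit tunnel. Each ribosomal protein takes its own place on the ribosomal RNA, and the subunits are put together in the nucleolus before they leave for the cytoplasm. Acinar cells of the pancreas make large amounts of digestive enzymes and are rich in ribosomes bound to the endoplasmic reticulum. The mRNAs of ribosomal proteins are short, abundant and translated in the cytoplasm, while the libraries were made from isolated nuclei.

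Single-nucleus RNA sequencing was made from 1 WT bama pig and 1 PIGinH11 bama pig, in which GIPRdn, hIAPP and PNPLA3 I148M had been knocked in at the H11 locus, where promoters of beta cells or of the liver drive them. Both pigs were 18 months old, were given control diet until 6 months of age, and then received HFHSD (37% sucrose, 53% control diet, 10% pork lard) for 12 months. With 1 piece of pancreas and 1 library per group, the spread between animals was not measured, so that no test between the groups is given and every interval is an exact 95% interval that covers counting error only. Genotype cannot be told apart from animal, tissue piece or library.

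The WT library held 13619 barcodes with a median of 3216 UMIs (a UMI marks a single captured molecule), and the PIGinH11 library held 14964 barcodes with a median of 1181.5 UMIs. After filtering, 11854 WT and 13126 PIGinH11 nuclei remained. The libraries had 60 barcode sequences in common. Nuclei were put into 11 classes by marker genes, after clustering on genes that did not include the members. Left unnamed were 1 cluster rich in digestive enzyme RNA, and 37 WT and 128 PIGinH11 endocrine-like nuclei without a hormone class. These endocrine-like nuclei held 0.474% ribosomal protein UMIs in WT and 0.233% in PIGinH11, and are not followed further. Levels are UMIs per 1000000 UMIs of a class and library (CPM). The libraries were made with a 3′ kit, and levels were not divided by gene length. Intronic reads appear to be among the counts, so that levels of genes of unequal span may not be comparable.

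All 52 members had a position in the RefSeq annotation of Sscrofa11.1, on 15 chromosomes. The genes were short, with a median span from the first to the last base of 3891 bases and a range from 940 to 17466 bases. RPS12 lies at chr1:30920804-30923392, RPL28 at chr6:59556586-59559337, RPS20 at chr4:75762209-75763449, RPL5 at chr4:124359786-124367612 and RPL10A at chr7:31327763-31330624. The span of 6 members overlaps another gene, and their counts are less certain. These are RPS28 (with NDUFA7), RPS25 (with CCDC84), RPL29 (with ACY1), RPS18 (with VPS52), RPL3L (with NDUFB10) and RPS4X. The identifier that the matrices call RPL22 is named ICMT in the reference table, so that its values are uncertain as well. Ribosomal protein genes also have many near-identical processed copies in mammalian genomes, and reads shared with such copies could not be told apart here.

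The 52 members together gave 0.517% of all UMIs in the WT library (95% interval, 0.515–0.519) and 0.264% in the PIGinH11 library (0.262–0.266). Each of the 11 classes showed the same direction. In acinar-like nuclei, members gave 0.477% of UMIs in WT and 0.294% in PIGinH11, which is a 1.62-fold lower share (1.60–1.64). In ductal-like nuclei the share was 0.313% in WT and 0.179% in PIGinH11, 1.75-fold lower (1.70–1.80). Over nuclei of all depths, the other 9 classes had larger folds as point values. The intervals of Schwann-like (1.57–2.05) and gamma-like nuclei (1.57–2.68) nevertheless cover the folds of both exocrine classes. Endothelial-like nuclei went from 0.475% in WT to 0.223% in PIGinH11, and immune-like nuclei from 0.642% to 0.264%. Among hormone cells, beta-like nuclei held 0.254% in WT and 0.110% in PIGinH11, and delta-like nuclei held 0.386% and 0.141%. The gamma-like class rests on 5 WT nuclei.

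**Figure D1:**
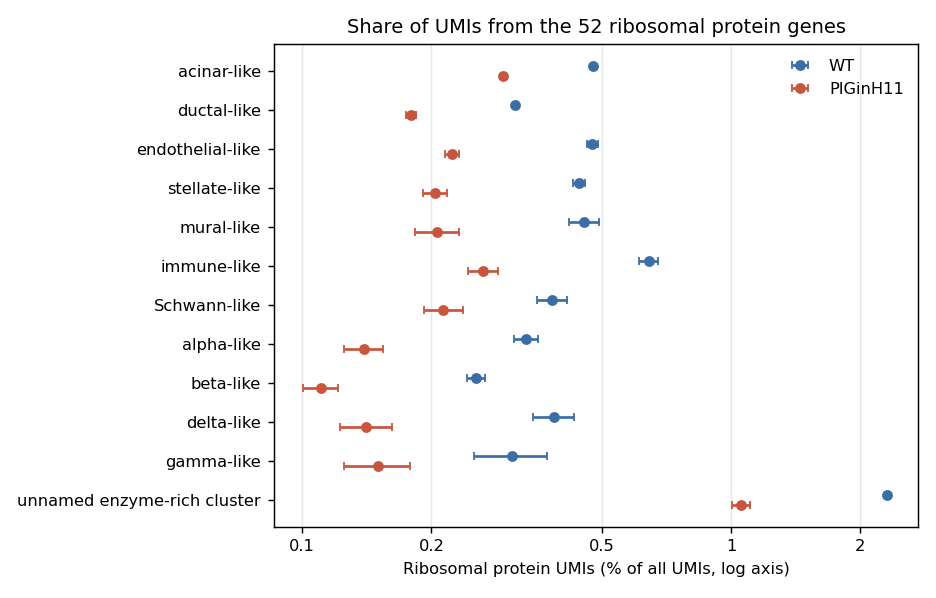
Share of UMIs that came from the 52 ribosomal protein genes (x axis, percent of all UMIs of the class, log axis) in each class (y axis) for WT (blue) and PIGinH11 (red), with exact 95% intervals. The PIGinH11 point lies to the left of the WT point in each class, from 0.294% against 0.477% in acinar-like nuclei to 0.110% against 0.254% in beta-like nuclei, and the unnamed enzyme-rich cluster lies at the far right with 1.06% against 2.31%.

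The order of the classes also differed between the libraries. In WT, immune-like nuclei came first among the named classes, and acinar-like nuclei followed at the level of endothelial-like nuclei, with overlapping intervals. In PIGinH11, acinar-like nuclei came first at 0.294%, ahead of immune-like nuclei at 0.264%, whose intervals did not overlap. Mural-like and stellate-like nuclei came next in WT, followed by delta-like and Schwann-like, and then by alpha-like, ductal-like and gamma-like nuclei, on point values, since intervals overlap within each of these groups and also between neighbouring groups. Beta-like nuclei were lowest in both libraries, and in WT their interval overlaps that of gamma-like nuclei. The share was lower in PIGinH11 in 19 of 19 clusters, and the intervals of the libraries were apart in 19. Among the 6 acinar-like clusters, the one with the most digestive enzyme RNA held 1.24% ribosomal protein UMIs in WT and 0.828% in PIGinH11, whereas the others lay between 0.355% and 0.628% in WT.

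In acinar-like nuclei, 50 of the 52 members had at least 50 UMIs over both libraries. RPL10L, a copy known from the testis, had 0 UMIs in both libraries, which allows up to 0.0993 CPM in WT and 0.192 CPM in PIGinH11. RPL3L, the copy of striated muscle, had 33 and 14 UMIs. Of the other 50, 47 were lower in PIGinH11 (all genes, 35.5% lower), and the interval of the ratio lay below 0 on the log2 scale for 47 (all genes, 21.8%). A log2 ratio of PIGinH11 over WT of -1 or less, which is a halving, was reached by 9 members (all genes, 2.91%), and a log2 ratio of 1 or more by 0 members (all genes, 16.5%). The interval lay above 0 for 1 member, RPL10A (all genes, 46.6%). The median member had a log2 ratio of -0.70, where the median of the 15960 genes was 0.21. The difference was thus spread over nearly the whole set, at unequal size.

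**Figure D2:**
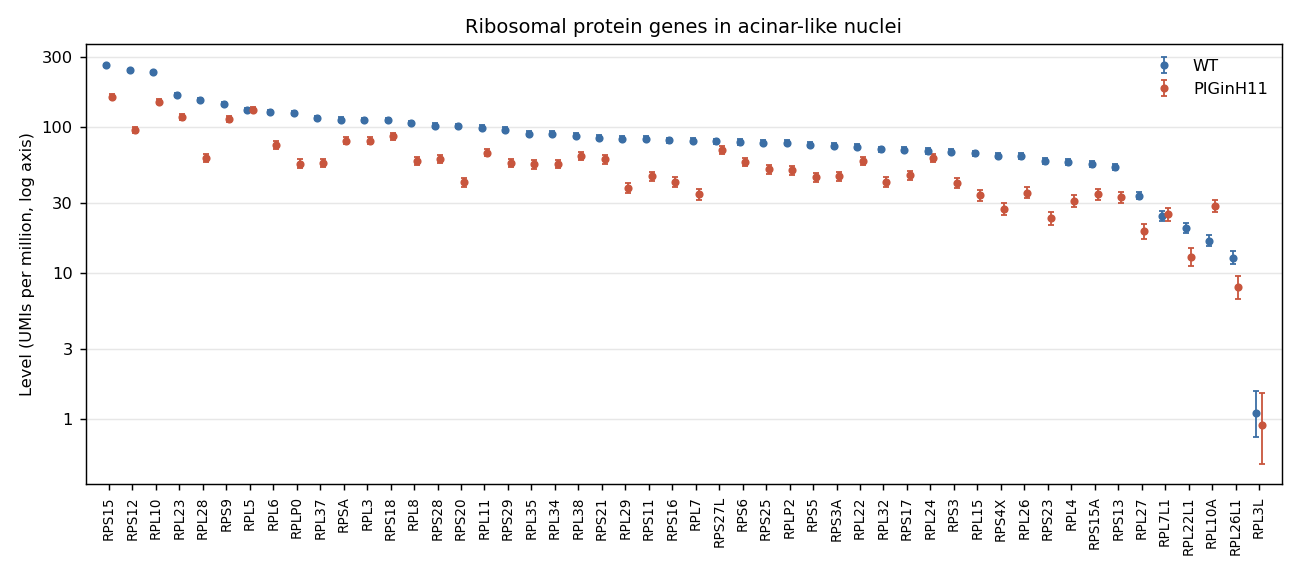
Level of ribosomal protein genes in acinar-like nuclei (y axis, CPM, log axis) for WT (blue) and PIGinH11 (red), ordered by the WT level, with exact Poisson 95% intervals (50 genes are drawn, and RPL10L, at 0 UMIs, is not). RPS15 is the highest in both libraries (264 and 160.3 CPM), the points of RPL5 coincide (131 and 131 CPM), and RPL10A is higher in PIGinH11 (16.6 and 28.5 CPM).

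RPS15, RPS12, RPL10 and RPL23 were among the most abundant members in WT acinar-like nuclei. RPS15, which sits in the head of the small subunit close to the decoding site, had 264 CPM in WT (258–270) and 160.3 CPM in PIGinH11 (154–167). RPL10, which joins the large subunit late in its maturation, had 236 and 148 CPM. Both kept close to the median of the set, with log2 ratios of -0.72 and -0.67. RPL23, at the surface where the subunits meet, had 165 and 117 CPM (log2 ratio -0.50). RPS12 differed more. It was second in WT with 244 CPM (239–249.7) and had 94.8 CPM (90.0–99.7) in PIGinH11.

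RPS12, a protein of the head of the small subunit, had the lowest log2 ratio in acinar-like nuclei, -1.36 (-1.45 to -1.28). RPL28, a protein found in eukaryotic ribosomes only, followed with 152 CPM in WT, 61.1 CPM in PIGinH11 and a log2 ratio of -1.32. RPS23, next to the decoding site, had 58.7 and 23.7 CPM (-1.31), and RPS20, which belongs to the head, had 102 and 41.5 CPM (-1.29). The intervals of these 4 ratios overlap, so that their order is not settled. RPS4X, RPL7, RPLP0, RPL29 and RPL37 were the other members past a halving. RPL7, RPL11 and RPS20 were chosen by the study on these same libraries, so that their direction is not independent evidence. RPL7, on the outer face of the large subunit, had 80.1 and 34.5 CPM (log2 ratio -1.21), and RPL11 had 98.8 and 66.6 CPM (-0.57).

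By place on the ribosome, the stalk proteins, which recruit elongation factors, were unequal. RPLP0, the base of the stalk, had 124 CPM in WT and 55.9 CPM in PIGinH11 (log2 ratio -1.15), whereas its partner RPLP2 had 77.6 and 50.2 CPM (-0.63), and these intervals do not overlap. RPL5 and RPL11 bind the 5S ribosomal RNA together and also hold back MDM2, the ligase of p53. RPL5 was equal in both libraries at 131 CPM in WT (126–135) and 131 CPM in PIGinH11 (125–137), with a log2 ratio of 0.01 that became -0.22 under median-of-ratios scaling. Over the 11 alternative settings, which include this scaling, the ratio was below 0 in 8 and ranged from -0.48 to 0.01. The 4 members at the exit tunnel had log2 ratios from -0.89 (RPL4, which lines the tunnel) to -0.33 (RPL22). At the mRNA entry and decoding site, RPS9 had 142 and 113 CPM (-0.33), RPS3 had 67.6 and 41.0 CPM (-0.72) and RPS23 stood at -1.31.

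The 11 members listed for the head of the small subunit lay between -1.36 (RPS12) and -0.36 (RPS18). Of these, 2 were past a halving, beside 9 of the 50 members and 2.91% of all genes. This list is a choice and leaves out RPS3, which was listed with the mRNA entry and decoding site. RPSA, which is also known as the laminin receptor, had 112 CPM in WT and 80.5 CPM in PIGinH11 (log2 ratio -0.48). RPL3, close to the site where peptide bonds form, had 111 and 80.5 CPM (-0.46). RPS6, the substrate of the S6 kinases, had 78.6 and 57.5 CPM (-0.45). Summed by the subunit in the symbol, the RPL genes had 2378 and 1504 CPM and the RPS genes 2395 and 1440 CPM. The log2 ratios were -0.66 (-0.68 to -0.64) and -0.73 (-0.76 to -0.71). Of the genes mutated in Diamond-Blackfan anemia, an inherited failure of red cell formation, 9 were members, 8 had an interval below 0 and 0 passed a halving, with RPL5 as the exception. Of the 50 members 47 had such an interval, and of all genes 21.8%.

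In ductal-like nuclei, 50 members had at least 50 UMIs. Of these, 48 were lower in PIGinH11 (all genes, 40%), 44 had an interval below 0 (all genes, 17.4%), 13 reached a log2 ratio of -1 or less (all genes, 2.72%) and 1 reached 1 or more (all genes, 10.7%). The interval lay above 0 for 2 members (all genes, 33.2%). The median member had a log2 ratio of -0.81, and the median of all genes was 0.12. The lowest ratios belonged again to RPS12, RPS20 and RPL28. RPS12 had 156 CPM in WT (147–164) and 44.6 CPM in PIGinH11 (37.7–52.4), a log2 ratio of -1.80. RPS20 had 68.4 and 21.0 CPM (-1.70), and RPL28 had 101 and 32.6 CPM (-1.63). At the other end, RPS9 had 83.4 and 72.4 CPM, a log2 ratio of -0.20 whose interval includes 0 (-0.42 to 0.01).

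RPL5 and RPL10A were the members with an interval above 0. RPL5 had 100.3 CPM in ductal-like WT nuclei (93.7–107) and 124 CPM in PIGinH11 (113–137), a log2 ratio of 0.31 (0.14 to 0.48). It gave 3.20% of the ribosomal protein UMIs of ductal-like nuclei in WT and 6.93% in PIGinH11, where it came first. Median-of-ratios scaling, which sets the middle gene of a class to equal levels, shifted log2 ratios by 0.23 in acinar-like, 0.15 in ductal-like and 0.12 in stellate-like nuclei, and left RPL5 at 0.16 in ductal-like nuclei. Among nuclei of 1000 to 2000 UMIs it was -0.16 in ductal-like nuclei, and below a UMI limit of 1300 it was -0.45, so that its direction there depended on the depth of the nuclei compared. In endothelial-like nuclei RPL5 had 109.6 and 82.7 CPM (-0.41), and in stellate-like nuclei 73.8 and 83.9 CPM with an interval that includes 0.

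The identifier called RPL10A has no symbol in the reference table, so that its name could not be checked there. RPL10A, a protein of the mobile side stalk of the large subunit, was among the least abundant members. It had 16.6 CPM in WT acinar-like nuclei (15.2–18.1) and 28.5 CPM in PIGinH11 (25.9–31.3), a log2 ratio of 0.78 (0.60 to 0.97), and remained between 0.54 and 0.93 under 11 other settings. In ductal-like nuclei it had 7.33 and 15.0 CPM from 63 and 50 UMIs (log2 ratio 1.03), and -0.08 among nuclei of 1000 to 2000 UMIs. Endothelial-like nuclei held 7 and 16 UMIs, and beta-like nuclei 3 and 2, too few to give a direction. RPL24, at a bridge between the subunits, was the fourth highest in acinar-like nuclei, after RPL10A, RPL7L1 and RPL5, with 68.1 and 61.4 CPM (-0.15).

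The copies of ribosomal proteins named for a relative did not move as a group. RPS27L, a relative of RPS27 that p53 induces, had 79.4 CPM in WT acinar-like nuclei and 69.3 CPM in PIGinH11, a log2 ratio of -0.20 (-0.30 to -0.09), which turned to 0.27 among nuclei of 1000 to 2000 UMIs. RPL7L1 had 24.5 and 25.1 CPM, a log2 ratio of 0.04 that was -0.19 under median-of-ratios scaling, beside -1.21 for RPL7. RPL22L1 had 20.2 and 12.9 CPM (-0.65), and RPL26L1 had 12.6 and 7.95 CPM (-0.67) beside -0.83 for RPL26. RPS4X, the copy of the X chromosome, had 63.5 and 27.2 CPM (-1.22).

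Outside the exocrine classes fewer members could be compared, and over nuclei of all depths their median ratios were lower. This order depended on depth. Among nuclei of 1000 to 2000 UMIs the summed log2 ratio was -1.28 in acinar-like and -1.68 in ductal-like nuclei. It was -1.39 in endothelial-like and -1.73 in stellate-like nuclei of this depth. At 4000 to 8000 UMIs it was -0.38 in acinar-like and -0.86 in ductal-like nuclei. The point values of endothelial-like (-0.93), stellate-like (-1.30) and beta-like nuclei (-1.29) were again lower there. The intervals of ductal-like and endothelial-like nuclei overlap at that depth. In endothelial-like nuclei, 28 of 46 members reached a log2 ratio of -1 or less (all genes, 2.84%), with a median of -1.11. RPL28 had 159 CPM in WT (136–184) and 41.0 CPM in PIGinH11 (30.5–53.8), and RPS12 had 195 and 57.8 CPM. In stellate-like nuclei it was 23 of 41 (all genes, 3.9%), with a median of -1.15. RPS12 had 236 and 64.0 CPM there. RPS6 had 69.8 CPM from 52 UMIs in WT and 15.5 CPM from 7 UMIs in PIGinH11. In immune-like nuclei, 9 of 11 members were past a halving (all genes, 3.87%), and RPS12 had 319 and 80.6 CPM. These 11 members had a median of 203 CPM in WT and 84.8 CPM in PIGinH11. They reached the UMI minimum for comparison mainly through WT, so that the count of halved members is partly set by that minimum. The summed log2 ratio of the 52 members in immune-like nuclei, which uses no minimum, was -1.28 (-1.42 to -1.14).

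In the hormone classes, no member reached 100 UMIs over both libraries. With so few UMIs, members reached the minimum of 50 mainly through WT, where their counts were higher, so that the counts of halved members in the small classes are partly set by that minimum. The beta-like class had 10 members with at least 50 UMIs, 6 of them past a halving (all genes, 3.18%), with RPS15 at 111 CPM in WT (86.0–140.4) and 42.8 CPM in PIGinH11 (24.9–68.5). RPL5 had 68.4 and 52.9 CPM, and its log2 ratio of -0.35 had an interval that includes 0. In alpha-like nuclei, 3 of 3 members that could be compared were past a halving (all genes, 3.13%), with RPS15 at 173 CPM in WT and 58.6 CPM in PIGinH11. Mural-like, Schwann-like, delta-like and gamma-like nuclei had 0 members with 50 UMIs, and the summed log2 ratios were -1.14, -0.84, -1.45 and -1.04. Over the classes, 211 pairs of a member and a class could be compared. The ratio was below 0 in 205 (all genes, 40.5%), its interval below 0 in 186 (all genes, 16.4%) and above 0 in 3 (all genes, 31%).

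**Figure D3:**
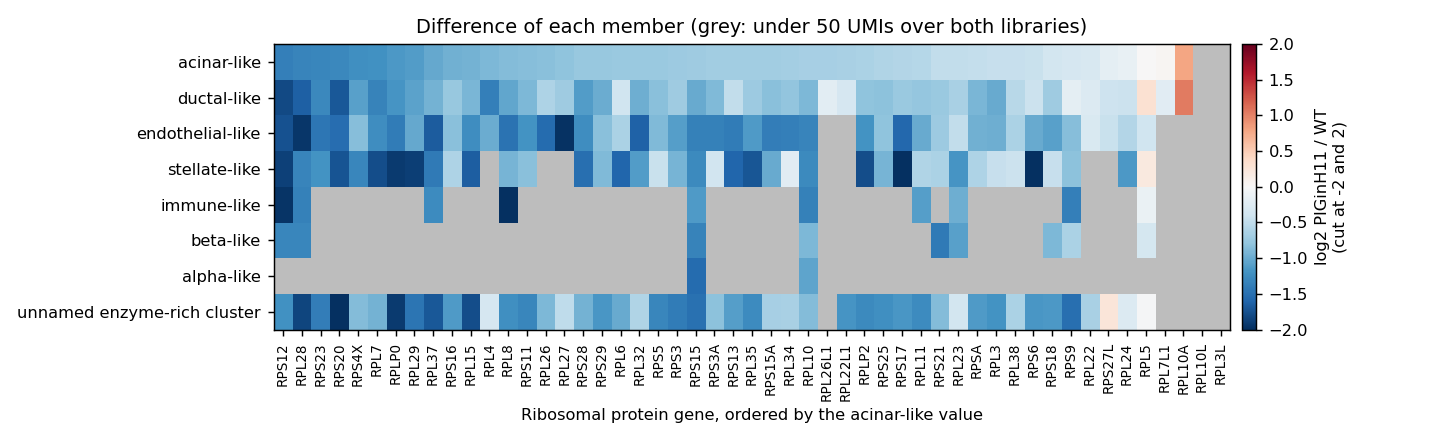
Log2 ratio of PIGinH11 over WT for 51 ribosomal protein genes (x axis, ordered by the acinar-like value) in 7 classes and the unnamed enzyme-rich cluster (y axis); blue is lower and red higher in PIGinH11, and grey marks members with under 50 UMIs over both libraries. Blue fills nearly all cells that are not grey, from -1.36 for RPS12 in acinar-like nuclei on the left to RPL10A on the right, which is red at 0.78 and 1.03.

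The make-up of the ribosomal protein RNA was alike between the classes of a library. Over the 52 members, the rank correlation of their shares between ductal-like and acinar-like nuclei was 0.95 in WT and 0.88 in PIGinH11, and between endothelial-like and acinar-like nuclei 0.86 and 0.83 (descriptions over genes of the same library, which are not replicates). Some members nevertheless took a different part of the ribosomal protein RNA by class in both libraries, beyond counting error. In ductal-like nuclei RPL22, RPS13, RPL5, RPL26L1 and RPL27 took a larger part, and RPS27L, RPSA, RPS15 and RPL10 a smaller part than in acinar-like nuclei. In endothelial-like nuclei RPS29, RPL15, RPS16 and RPS21 took a larger part, and RPS27L, RPSA, RPS15 and RPL3 a smaller one. The interval of RPL10A also lay below that of an equal part there, but from only 7 WT and 16 PIGinH11 UMIs. All 52 members were compared in each class, and the intervals make no allowance for their number.

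The unnamed cluster of 356 WT and 182 PIGinH11 nuclei held the most ribosomal protein RNA, with 2.31% of UMIs in WT and 1.06% in PIGinH11, together with 59.3% and 16.0% digestive enzyme UMIs. RPS12 had 1424 CPM there in WT and 611 CPM in PIGinH11. In both libraries RPS12, RPL28, RPL7 and RPS4X took a larger part of the ribosomal protein RNA in this cluster than in acinar-like nuclei. RPS27L, RPSA, RPL22, RPS9, RPS15, RPL5 and RPS18 took a smaller part. So did RPL10A and RPL7L1, but from only 7 and 3 UMIs in PIGinH11. RPS12 made up 6.17% of the ribosomal protein UMIs of the cluster and 5.11% of those of the acinar-like nuclei in WT, and 5.78% and 3.22% in PIGinH11. RPL5 made up 1.31% and 2.73% in WT, and 2.80% and 4.45% in PIGinH11.

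Between the libraries, depth and RNA make-up moved with the ribosomal protein share. The median depth of acinar-like nuclei was 2846 UMIs in WT and 1198 in PIGinH11. Digestive enzymes gave 8.44% and 5.96% of the UMIs of acinar-like nuclei, and in endothelial-like nuclei, which do not make them, 4.05% and 1.06%, with PRSS2 (trypsinogen) at 2.15% and 0.161%. Genes of the mitochondrial genome, which is not in the nucleus, gave 0.143% and 0.0548% in acinar-like nuclei, and 12 of 12 had an interval below 0 (all genes, 21.8%). Over the clusters of WT, the rank correlation of the ribosomal protein share was 0.79 with the enzyme share and 0.93 with the mitochondrial share (18 clusters). In PIGinH11 it was 0.88 and 0.85 (19 clusters, which share a library and its depth). With the median depth of the clusters the rank correlation was negative within each library, -0.35 in WT and -0.51 in PIGinH11. The part of these values in the result was not tested.

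In acinar-like and ductal-like nuclei, the difference between the libraries was larger among shallow nuclei. Acinar-like nuclei of 500 to 1000 UMIs held 1.01% ribosomal protein UMIs in WT and 0.314% in PIGinH11, a log2 ratio of -1.69 (-1.74 to -1.65). At 4000 to 8000 UMIs they held 0.398% and 0.306%, a log2 ratio of -0.38 (-0.41 to -0.35). Over the groups from 500 to 8000 UMIs, the WT share fell, and the PIGinH11 share stayed between 0.267% and 0.314%. Nuclei of 8000 UMIs or more were kept but not grouped, so that the course beyond this depth is not shown. Per nucleus, WT acinar-like nuclei held 7.79 ribosomal protein UMIs in the shallowest group and 22.5 in the deepest, and PIGinH11 nuclei 2.28 and 16.3. In ductal-like nuclei the log2 ratio was -1.85 at 500 to 1000 UMIs and -0.86 at 4000 to 8000. There the share was lower in the deeper of these groups in both libraries, from 0.868% to 0.259% in WT and from 0.240% to 0.142% in PIGinH11. Other classes differed in this. At 2000 to 4000 and 4000 to 8000 UMIs the log2 ratio was -1.09 and -0.93 in endothelial-like nuclei. It was -1.22 and -1.30 in stellate-like and -1.35 and -1.29 in beta-like nuclei. In each of these 3 classes the intervals of both depths overlap. The enzyme share of WT acinar-like nuclei was 13.8% in the shallowest and 7.29% in the deepest group, and that of PIGinH11 4.99% and 6.77%.

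**Figure D4:**
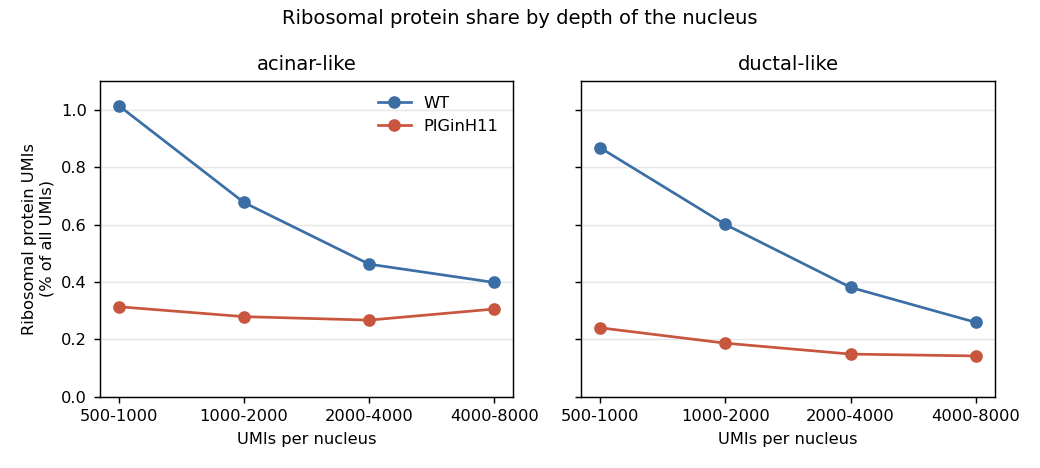
Share of ribosomal protein UMIs (y axis, percent of all UMIs) in nuclei grouped by their total UMIs (x axis) for acinar-like (left) and ductal-like nuclei (right), WT in blue and PIGinH11 in red. The WT line falls from 1.01% to 0.398% in acinar-like nuclei, and the PIGinH11 line stays between 0.267% and 0.314%. Nuclei of 8000 UMIs or more are not drawn.

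The size of the difference was loosely related to the span of the gene. Over the 50 members of acinar-like nuclei, the rank correlation of the log2 ratio with the span was 0.43, over the 50 of ductal-like nuclei 0.45 and over the 46 of endothelial-like nuclei 0.44 (descriptions over genes that share both libraries). With the level in acinar-like nuclei it was 0.02. Members under 2 kb had a median log2 ratio of -0.76, those of 2 to 5 kb -0.76 and those of 5 to 20 kb -0.58. Other genes of these spans had medians of -0.10, 0.13 and 0.16. Among the members with extreme ratios, RPS20 spans 1241 bases, RPS23 1644 and RPS12 2589, whereas RPL5 spans 7827 and RPL7L1 7710. Several members go against this order, among them RPL10A (2862 bases, 0.78), RPS15 (1421 bases, -0.72) and RPS4X (5878 bases, -1.22).

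**Figure D5:**
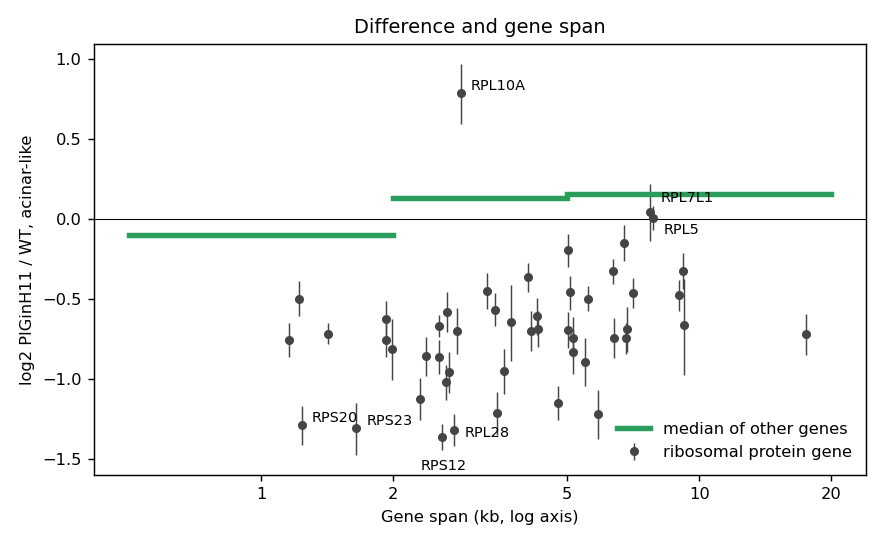
Log2 ratio of PIGinH11 over WT in acinar-like nuclei (y axis, with exact 95% intervals) against the span of ribosomal protein genes in kb (x axis, log axis), with the median of other genes of the same span as green bars. The members lie below the bars at each span, except RPL10A at 0.78.

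The 8 ribosomal protein genes named through the reference table behaved like the members, with 8 of 8 intervals below 0 (all genes, 21.8%) and a median log2 ratio of -0.87 in acinar-like nuclei. RPLP1, the other small stalk protein, had 334 CPM in WT and 115 CPM in PIGinH11 (-1.53), and RPS24 had 213 and 192 CPM (-0.15). RACK1, a scaffold on the head of the small subunit that the rule does not take in, had 80.9 and 57.8 CPM (-0.49).

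Genes that act on ribosomes were set beside all genes of acinar-like nuclei, of which 46.6% had an interval above 0 and 21.8% below 0, with a median log2 ratio of 0.21. Of 17 ribosome biogenesis genes, 11 had an interval above 0 and 1 below 0, with a median of 0.29, close to that of all genes. Of the core proteins of the box C/D particles that guide methylation of ribosomal RNA, NOP56 had 53.7 CPM in WT and 93.0 CPM in PIGinH11 (0.79), and NOP58 had 147 and 135 CPM (-0.13). NPM1, a nucleolar chaperone, had 46.2 and 44.4 CPM, with an interval that includes 0. The 65 mitochondrial ribosomal protein genes that could be compared had 14 intervals below 0, 13 above 0 and a median of 0.02, so that their share below 0 was near that of all genes and their share above 0 was lower. Among 9 genes of the S6 kinase and TOR pathway, 4 had an interval below 0 and 5 above 0, a share below 0 higher than that of all genes. LARP1, which binds the mRNAs of ribosomal proteins, had 1063 and 1017 CPM (-0.06).

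Other mRNAs that begin with the same pyrimidine tract as those of ribosomal proteins differed among themselves. Of 7 such genes, 4 had an interval below 0 (all genes, 21.8%) and 2 above 0 (all genes, 46.6%) in acinar-like nuclei, and their summed log2 ratio was -0.71. TPT1 had 514 CPM in WT and 153 CPM in PIGinH11 (log2 ratio -1.75), lower than any member. EEF1D, a subunit of the exchange factor for elongation, had 129 and 166 CPM (0.36), and EEF2, the translocase, 61.5 and 58.5 CPM, with an interval that includes 0. In endothelial-like nuclei the biogenesis genes that could be compared had a median of -0.08 (8 genes), and the mitochondrial ribosomal protein genes -0.28 (19 genes), beside -1.11 for the members.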

How the data were processed

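The authors aligned reads to Sscrofa11.1 and deposited raw UMI counts per gene and barcode (Cell Ranger v3.1.0 and Seurat v3.1.1 in the submitters' processing notes, Cell Ranger v5.0.0 in the file headers). The study does not state whether intronic reads were counted. Its quality control values give a larger share of reads for the transcriptome than for exons in both libraries, which exonic reads alone could not give. The exonic share of reads was lower, and the intronic share higher, in PIGinH11 than in WT. The part of this difference in the result was not tested. Barcodes with 270 to 3700 genes, under 13000 UMIs and under 10% mitochondrial UMIs were kept, since the printed UMI limit of 1300 would remove most WT nuclei. Doublets were scored with Scrublet (scanpy v1.11.5), and the highest-scoring 0.8% per 1000 barcodes were removed. Nuclei were clustered on the genes that were among the 2000 most variable of either library, and on 30 principal components. The members were left out, and so were the genes of the other lists, digestive enzymes and mitochondrial genome included, unless they were cell type markers. Harmony correction was written in numpy, and Louvain clustering was used (igraph v0.11.9, resolution 1). Clusters were named from at least 3 markers. Depth per library ranged from a median of 1181.5 to 3216 UMIs, and it limits which members can be compared.

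UMIs were summed per class and library. Intervals were Poisson for sums, Clopper–Pearson for shares and conditional binomial for ratios, with 0.5 UMIs added for the ratio itself, and members with at least 50 UMIs over both libraries were compared. An absent member was given the limit of 3 UMIs. The calculation of the ratios and their intervals was checked on simulated Poisson counts, which hold no spread between nuclei or animals. The alternatives were other scalings, UMI minimums, nucleus filters and clusterings, thinning and a range of depth. The members and lists were chosen with earlier results of these data known. Named were the 5 most abundant members of WT acinar-like nuclei, the extremes of the log2 ratio (4 at either end in acinar-like and 3 in ductal-like and beta-like nuclei, from 100 UMIs in the class and 10 in each library, which no member met in beta-like nuclei), the paralogs, RPL11, RPL7 and RPS20 of the study, landmarks by role, and members with an interval above 0. Other members, such as RPL22, RPL26, RPL29, RPL37 and RPS18, were named after their values were seen, to complete a count or a range. Of each other list, examples came from the 4 genes with the most UMIs in acinar-like nuclei. Of the 52 identifiers, 42 had a symbol in the reference table, and 41 the same one. Sequences were not used here, and the values of 1 member are not reported here.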

Additional observations from a re-analysis of the deposited data

Results flagged for a closer look

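RPL5 was higher in PIGinH11 in ductal-like nuclei, with a log2 ratio of 0.31 (0.14 to 0.48), and lower in endothelial-like nuclei, with -0.41 (-0.80 to -0.02). It drew attention because the intervals lie on opposite sides of 0 in these classes. The difference between the classes was not tested, since each group has 1 library. The ductal-like value was below 0 in 2 of 10 other settings, and that of endothelial-like nuclei in 9 of 10.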

How the results depend on the processing

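The summed log2 ratio was below 0 in 102 of 102 recalculations over the 11 classes, from -2.19 to -0.68, and the median member ratio in 49 of 49. A UMI limit of 1300 moved the summed ratio to -1.54 (acinar-like), -1.78 (ductal-like), -1.63 (endothelial-like) and -1.43 (stellate-like). It was -2.19 (immune-like), -2.01 (Schwann-like), -1.67 (beta-like) and -1.73 (gamma-like), where only 21, 18, 5 and 6 WT nuclei were left. At this limit 44 acinar-like and 38 ductal-like members were past a halving (medians -1.54 and -1.89). The share of all genes past a halving is not given for the settings of this section. Its counts of halved members therefore describe only how the count depends on the setting. Among nuclei of 1000 to 2000 UMIs, a setting chosen after seeing the data, it was -1.28, -1.68, -1.39 and -1.73 in acinar-like, ductal-like, endothelial-like and stellate-like nuclei, with 38 of 50, 41 of 45 and 1 of 1 members past a halving in the first 3 (medians -1.28, -1.88 and -1.25), and RPS27L turned to 0.27 in acinar-like nuclei. Thinning nuclei to 500 UMIs gave summed ratios of -0.90 in acinar-like and -0.95 in ductal-like nuclei (medians -0.92 and -1.01), and left 5 members to compare in endothelial-like nuclei. The summed ratios of other thinned classes were -1.40 (mural-like), -1.02 (immune-like), -1.38 (beta-like), -1.84 (delta-like) and -1.68 (gamma-like).

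Median-of-ratios scaling gave -0.92, -0.96 and -1.24 in acinar-like, ductal-like and stellate-like nuclei (medians -0.93, -0.96 and -1.27), with 17 and 22 members past a halving in the first 2. The mean over nuclei gave -0.94, -0.98 and -1.01 (medians -0.94, -0.98 and -1.0), with 22 and 24 members. With the enzyme-rich cluster added to the acinar-like nuclei it was -0.88 with 15 members (median -0.89), and leaving enzyme, ribosomal protein and mitochondrial genes out of the total gave -0.74 (median -0.74). Keeping doublets gave a summed ratio of -0.76 in ductal-like nuclei and medians of -0.72, -0.73 and -0.99 in acinar-like, ductal-like and stellate-like nuclei. A gene minimum of 500 gave -0.88 in ductal-like nuclei (median -0.90) and -0.98 in immune-like nuclei, Louvain resolution 2 gave -1.12 in immune-like nuclei, and no Harmony correction gave -1.06 in Schwann-like nuclei. A minimum of 200 UMIs left 6 of 11 members past a halving in endothelial-like nuclei (median -1.32) and 1 of 1 in stellate-like nuclei (-1.86), and a minimum of 1 UMI gave an endothelial-like median of -1.02. The share over all barcodes was 0.496% in WT and 0.268% in PIGinH11 over retained nuclei, and 0.432% and 0.229% as a median over barcodes. The values of all genes under the settings of this section are not given. The ratios of the members therefore do not show whether a shift is particular to them. The cause of these shifts was not tested.

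The UMI limit of 1300 gave no value for mural-like and alpha-like nuclei, and it left 0 members to compare in endothelial-like and stellate-like nuclei, as did thinning and the range of 1000 to 2000 UMIs in stellate-like nuclei. The few nuclei of the small classes limit how many of their members can be compared. No paired analysis was possible because each group has 1 library and the labels carry no replicate numbers.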
